A study of Rattus norvegicus with 11 samples.

Results

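Zinc finger protein genes were followed in polyA RNA of the corpora quadrigemina, the paired inferior and superior colliculi of the midbrain in which audiogenic seizures start, in 11 male 4-month-old rats. The set held the 25 genes, out of 32883 in the counts, whose symbols begin with Zfp, Znf, Zbtb or Zscan in the supplementary table of differentially expressed genes (DEGs). That table names mostly genes that were listed as differing between KM and W rats or between KM and “0” rats in these same libraries, so the values of both comparisons chose the genes and are given here as a description. It listed 20 of the 25 genes for KM vs W and 8 for KM vs “0”, with Zfp575, Zfp518a and Zfp423 in both.

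The 3 KM rats belonged to the inbred Krushinsky-Molodkina strain, which was selected from Wistar stock for convulsions in response to sound. The 4 W rats were outbred Wistar animals labelled wild type. The 4 “0” rats, labelled as less prone to audiogenic epilepsy, came from a strain bred out of KM × Wistar hybrids for the absence of such seizures, a selection that is still running. Labels give Wistar as the strain of all 11 animals. All rats had been tested with sound 4 days before the tissue was taken. KM rats had also been tested once and “0” rats repeatedly in an earlier test. The paper records tonic convulsions of maximal intensity for KM rats and states that the W and “0” rats used were not prone to seizures. Strain, sound history and past seizures therefore cannot be told apart. In whole tissue, fewer cells of a type and less RNA per cell cannot be told apart either.

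Zinc finger proteins of the C2H2 type fold short peptide loops around a zinc ion, and arrays of such fingers read DNA sequence. Many carry a second domain that recruits partners. The KRAB domain binds the corepressor Trim28, the BTB domain pairs proteins and draws in other corepressors, and the SCAN domain pairs related proteins. The family is among the largest and fastest changing groups of transcription factors in mammals, and its members include regulators of glial and neuronal differentiation as well as repressors of transposable elements.

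Promoters are shown for some of the genes that stood apart by strain in the counts. RefSeq entries on the GRCr8 assembly matched 23 of the 25 genes, and 16 had a promoter of 300 bases reaching from upstream of the transcription start to just downstream of it. Those shown belong to Zfp488, in which all “0” rats lay above the other strains, to Zfp771, in which all W rats did, and to Zfp169 and Zbtb1, in which all KM rats lay below or above the others, as examples of each direction. Zscan2, in which KM rats also lay below the others, has a promoter with 1 GC box that is not shown. Capitals mark the letters GGGCGG on either strand, known as a GC box (chr16:9299879-9300178, minus strand, for Zfp488; chr1:191294280-191294579, plus strand, for Zfp771; chr17:16345397-16345696, plus strand, for Zfp169; chr6:100844840-100845139, plus strand, for Zbtb1).
Zfp488: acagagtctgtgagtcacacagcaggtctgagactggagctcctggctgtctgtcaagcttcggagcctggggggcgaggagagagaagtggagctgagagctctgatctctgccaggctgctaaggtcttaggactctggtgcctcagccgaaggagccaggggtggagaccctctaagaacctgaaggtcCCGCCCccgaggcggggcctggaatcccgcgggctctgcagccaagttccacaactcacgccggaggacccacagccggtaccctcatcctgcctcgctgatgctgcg
Zfp771: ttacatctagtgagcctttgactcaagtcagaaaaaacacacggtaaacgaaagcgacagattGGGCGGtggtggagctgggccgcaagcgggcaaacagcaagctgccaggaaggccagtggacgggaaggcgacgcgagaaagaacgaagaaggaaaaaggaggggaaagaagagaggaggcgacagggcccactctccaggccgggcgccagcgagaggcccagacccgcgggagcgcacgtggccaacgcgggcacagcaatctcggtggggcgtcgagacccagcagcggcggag
Zfp169: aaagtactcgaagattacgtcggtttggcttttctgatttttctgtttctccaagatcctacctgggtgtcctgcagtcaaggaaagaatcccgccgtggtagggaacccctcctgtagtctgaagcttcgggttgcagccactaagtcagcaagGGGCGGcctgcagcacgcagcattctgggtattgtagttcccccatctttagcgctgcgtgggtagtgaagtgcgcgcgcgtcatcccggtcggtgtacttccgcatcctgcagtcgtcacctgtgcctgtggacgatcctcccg
Zbtb1: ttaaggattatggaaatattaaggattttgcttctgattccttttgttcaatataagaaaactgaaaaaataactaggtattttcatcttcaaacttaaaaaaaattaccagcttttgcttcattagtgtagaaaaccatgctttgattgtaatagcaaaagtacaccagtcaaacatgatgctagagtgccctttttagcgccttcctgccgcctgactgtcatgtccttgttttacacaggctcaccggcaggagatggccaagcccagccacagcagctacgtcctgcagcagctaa
The first 3 held 1 GC box each and Zbtb1 had none in this window. The Zbtb1 window was also poor in CpG, with 4 and a GC content of 39.7%, where the medians of the 16 were 14 and 55.5%. Whether its annotated start is the one used in this tissue was not tested, so nothing is read from the missing GC box.

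GC boxes occurred in 8 of the 16 promoters, namely those of Zfp169, Zfp40, Zfp488, Zfp593, Zfp687, Zfp771, Zfp954 and Zscan2, and in 33.06% of all 33469 rat promoters of the same length. The CCAAT box was found in 6 of 16, against 37.49% of all promoters, and the letters TATAAA only in Zfp422, against 14.22%. TGACG, the core of the cyclic AMP response element, was present in 10 of the 16 and in 21.2% of all promoters. The E-box CACGTG was seen in Zfp593 and Zfp771 and in 6.42% of all. Both strands were searched, and a match of one motif may overlap a match of another. The median number of CpG dinucleotides was 14 in these promoters, 11 in the 570 promoters of genes with Zfp, Znf, Zbtb or Zscan symbols, and 7 in all. The matches describe the sequence only, since no factor binding was measured.

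Expression was compared as CPM, a gene's count relative to all reads assigned in the library, scaled by TMM, edgeR's library size correction, and differences as log2-fold changes with their standard errors from the quasi-likelihood F-test (QLF test). A gene was called at an unadjusted p under 0.05, the threshold of the study. All 25 genes passed the filter of a mean of 1 CPM in each comparison. CPM is not corrected for transcript length, so levels were compared between rats and not between genes.

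Libraries held 10545964 to 15140180 reads assigned to genes, and 3 reads in a library corresponded to 0.178 to 0.331 CPM. The share of reads outside genes was 19.3 to 21.5% in KM, 17.4 to 22.7% in “0” and 16.5 to 21.7% in W rats. The 10 most abundant genes took 29.2% of the reads in “0” 3, 7.94% in KM 3, 7.95% in “0” 4 and 13.9 to 19.0% in the other rats. “0” 3 and “0” 4 were thus the highest and lowest of their strain. KM 3 stood apart by genes of the choroid plexus, the secretory tissue of the ventricles, with Ttr at 6451 CPM against 10.1 and 37.1 in the other KM rats.

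In KM vs W, 17 of the 25 genes were called, 4 higher and 13 lower in KM rats. Over all 13721 genes tested the share called was 10.9%, with 5.58% higher and 5.33% lower. These genes were chosen on this comparison, so nothing is read from their excess over the background. The same holds for their directions. Of the 25 log2-fold changes 16 were negative and 9 positive, with a median of -0.38, while the median of all genes tested was 0.01. None of the 25 had an adjusted p under 0.05 in edgeR's QLF test or in the DESeq2 Wald test, which at the unadjusted threshold called 16 of them, and 9 of all genes tested did in the QLF test, which is 0.0656%. Zfp423 lay just inside the threshold at a log2-fold change of -0.27, and Zscan2 (-0.51), Zfp422 (0.37) and Zfp17 (-0.48), which the table lists, lay just outside it in the present fit. Without KM 3, 9 genes were called, 1 higher and 8 lower, and 9 were called without KM 1 or without W 4 and 11 without KM 2.

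In KM vs “0”, 8 genes were called, 4 higher and 4 lower in KM rats, where 3.65% of the 13686 genes tested were called, 2.37% higher and 1.29% lower. The higher ones were Zfp518a, Zfp40, Zfp280d and Zfp329, and the lower ones Zfp488, Zfp575, Zfp423 and Zfp687. The median over the 25 genes was -0.11, and 0.01 over all genes. None of the 25 had an adjusted p under 0.05 in edgeR's QLF test, which gave 2 such genes among all tested (0.0146%), whereas Zfp488 did in the DESeq2 Wald test. Zfp280d, at a log2-fold change of 0.62, was the called gene nearest to the threshold, and Zbtb1, at 0.45, the nearest not called. Without KM 3, 4 genes were called, 2 in each direction, and 2 were called without KM 2, 3 without KM 1, 3 without “0” 3 and 5 without “0” 1.

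**Figure D1:**
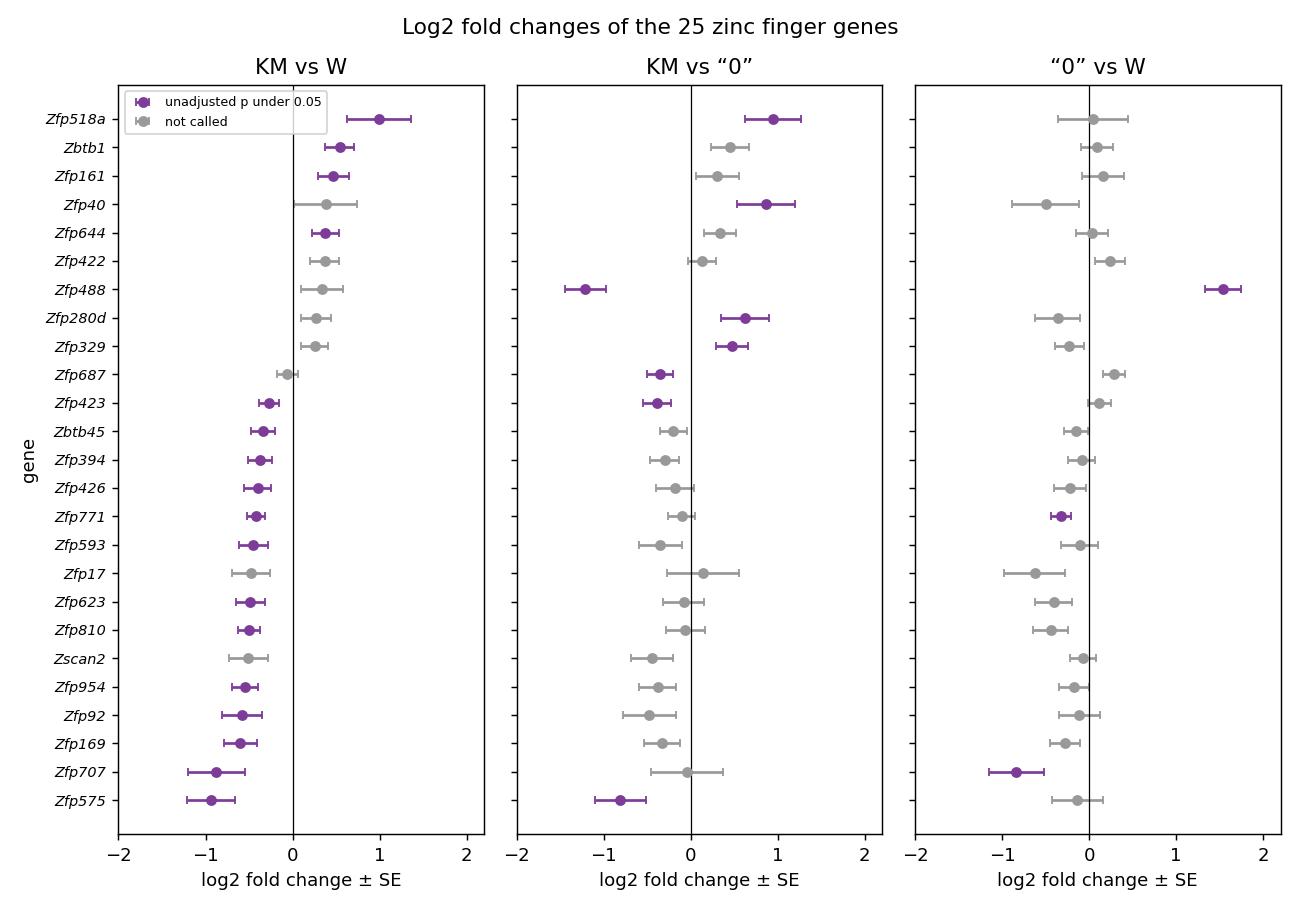
Log2-fold change ± SE of each of the 25 zinc finger genes (rows), with one panel for each pair of strains and genes at an unadjusted p under 0.05 in purple and the others in grey. In KM vs W 13 of the 17 called genes lie left of 0, and in “0” vs W the 3 called genes are Zfp488, Zfp771 and Zfp707.

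The comparison of “0” with W rats had no part in choosing the genes, but its rats are those of the other comparisons, so its values do not stand free of them. Here 3 of the 25 genes were called, where 6.69% of the 13630 genes tested were called, 3.26% higher and 3.43% lower. Zfp488 was higher in “0” rats, and Zfp771 and Zfp707 were lower. After adjustment over all genes Zfp488 alone remained, with 0.110% of the genes tested (15 genes) under 0.05. The other 22 genes had log2-fold changes from -0.63 (Zfp17) to 0.29 (Zfp687), and the smallest adjusted p among them was 0.753, for Zfp810. The median of the 25 was -0.14, beside -0.01 for all genes.

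Zfp488 encodes a nuclear protein known to promote oligodendrocyte differentiation together with Olig2. It was measured at 10.1, 13.4, 15.5 and 14.8 CPM in the 4 “0” rats, from 127 to 227 reads per rat. The KM rats had 4.38, 6.25 and 6.65 CPM and the W rats 3.77, 4.21, 5.83 and 4.52 CPM. The lowest “0” rat thus lay above the highest rat of either other strain, while KM and W rats overlapped.

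The means of Zfp488 were 13.4 ± 2.40 CPM in “0” rats (SD, n = 4), 5.76 ± 1.21 in KM rats (n = 3) and 4.58 ± 0.888 in W rats (n = 4). In “0” vs W the log2-fold change was 1.54 ± 0.21 (SE), with an adjusted p = 0.0256 by the QLF test and an exact two-sided permutation p = 0.0286, the smallest that 4 against 4 rats allow. The permutation test was run only on genes called in this comparison. It gives that value to any gene whose strains do not overlap, so it adds nothing to the ranges. Zfp488 was listed for KM vs “0” alone, so the same “0” rats had a part in choosing it. Over 16 settings of the analysis it ranged from 1.45 to 1.68, and the adjusted p from 8.47e-08 to 0.182, with 9 settings under 0.05. The adjusted p was above 0.05 without “0” 2 (0.114), “0” 3 (0.106), “0” 4 (0.0872), W 1 (0.134), W 2 (0.0975) or W 4 (0.0581), although the gene was still called at the unadjusted threshold each time. In KM vs “0”, one of the comparisons that chose the genes, the log2-fold change was -1.21 ± 0.24, and in KM vs W it was 0.34 ± 0.24.

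Oligodendrocyte genes were set beside Zfp488, as far as the table names them, which was 2 of the 13 reported here. Their summed level was 148 to 244 CPM in “0” rats, 236 to 292 in KM rats and 178 to 271 in W rats. Ugt8, an enzyme of myelin lipid synthesis, was lower in “0” than in W rats at a log2-fold change of -0.68 ± 0.19 (unadjusted p = 0.00552, adjusted p = 0.407). Ermn, a cytoskeletal protein of mature oligodendrocytes, had 0.17 ± 0.22 and was not called. Of 5 genes of oligodendrocyte precursors 3 are named, with Gpr17 at -0.66, Bcas1 at 0.54 and Enpp6 at 0.27 in the same comparison. Gpr17 and Bcas1 were called, in opposite directions. The part of oligodendrocyte number in the level of Zfp488 was not tested.

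**Figure D2:**
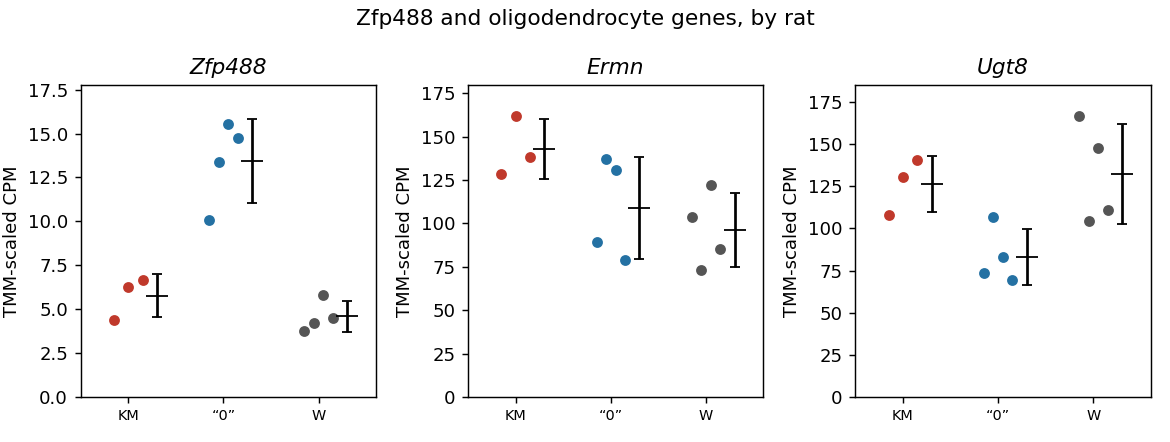
TMM-scaled CPM of Zfp488 and of the oligodendrocyte genes Ermn and Ugt8 in each rat (points), with mean ± SD beside the points, for 3 KM, 4 “0” and 4 W rats. Zfp488 is highest in the 4 “0” rats, at 10.1 to 15.5 CPM, whereas the Ugt8 mean is lowest in that strain.

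Zfp771 was the gene in which W rats stood apart. Its levels were 43.4, 41.0, 40.8 and 41.2 CPM in W rats, 31.9, 28.8, 36.5 and 36.8 CPM in “0” rats and 30.9, 28.6 and 33.4 CPM in KM rats. Every W rat lay above every rat of both selected strains, which overlapped each other. In “0” vs W the log2-fold change was -0.32 ± 0.12 (unadjusted p = 0.0211, adjusted p = 0.633, QLF test). The exact permutation p was 0.0286, which only restates that the ranges did not overlap. The call was lost without “0” 1, “0” 2 or W 1, at unadjusted p of 0.0650, 0.0519 and 0.0542 by the QLF test for Zfp771. The description for KM vs W was -0.42 ± 0.10.

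Zfp707, a KRAB zinc finger gene, had lower means in both selected strains than in W rats. The W rats had 5.29, 5.82, 5.83 and 8.85 CPM, the “0” rats 5.41, 3.03, 4.19 and 1.95 CPM, and the KM rats 4.62, 3.80 and 2.08 CPM. W and KM rats did not overlap, but “0” 1 reached the W range. In “0” vs W the log2-fold change was -0.83 ± 0.32 (unadjusted p = 0.0267, adjusted p = 0.646, QLF test), with an exact permutation p of 0.0571 for Zfp707. Without “0” 2, “0” 4 or W 4 the unadjusted p was 0.0678, 0.0581 and 0.0781. RefSeq gives the name Zfp707 as a synonym of Zfp707l1 too, so this value is uncertain. Likeness of the sequences of these genes, and a split of reads between them, were not examined. The neighbouring Zfp623, which in the RefSeq gene order is separated from Zfp707 by Zfp707l1 alone, had -0.41 ± 0.21 in “0” vs W and was not called.

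**Figure D3:**
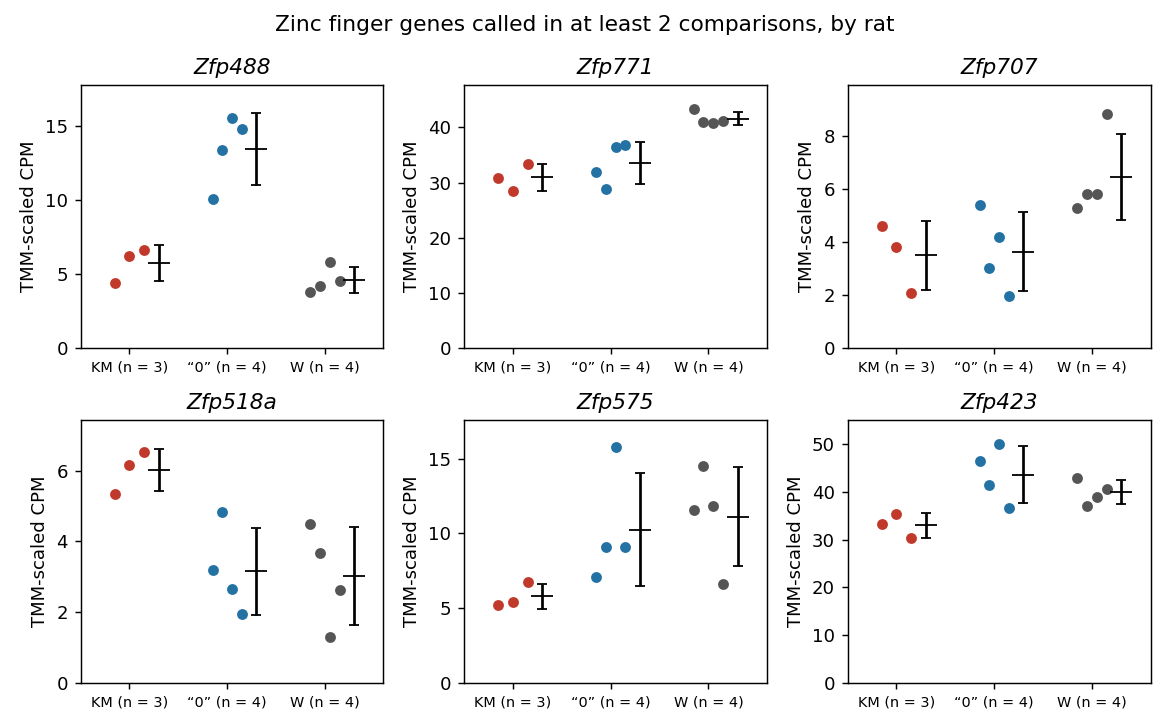
TMM-scaled CPM in each rat (points) with mean ± SD beside the points for the 6 zinc finger genes called in at least 2 comparisons, in 3 KM, 4 “0” and 4 W rats. Zfp488 is high in “0” rats, Zfp771 in W rats and Zfp518a in KM rats, at 5.35 to 6.53 CPM.

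The strains were also compared by whether their ranges overlapped. KM and W rats did not overlap in 18 of the 25 genes, 5 higher and 13 lower in KM rats, against 11.6% of all genes tested, 5.12% higher and 6.52% lower. For KM and “0” rats this held for 10 genes, 4 higher and 6 lower, against 4.63% of all genes, 2.30% and 2.33%, and nothing is read from either count, since both comparisons chose the genes. “0” and W rats did not overlap in 2 genes, Zfp488 higher and Zfp771 lower in “0” rats, against 4.32% of all genes, 2.33% and 1.99%.

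KM rats stood apart from both other strains in 5 genes, Zfp518a and Zbtb1 above and Zfp169, Zfp423 and Zscan2 below. Among the 13492 genes tested in all comparisons 1.80% had all KM rats outside the range of the others, 0.608% all “0” rats (Zfp488 among the members) and 1.85% all W rats (Zfp771). These counts describe genes that were chosen for differing in KM rats.

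Zfp518a had 5.35, 6.17 and 6.53 CPM in KM rats, 3.18, 4.83, 2.65 and 1.95 CPM in “0” rats and 4.49, 3.67, 1.29 and 2.64 CPM in W rats. Its KM rats gave the most positive log2-fold changes of the set, 1.0 ± 0.36 against W rats and 0.94 ± 0.32 against “0” rats. “0” and W rats overlapped, and their log2-fold change was 0.04 ± 0.40.

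Zbtb1, a BTB zinc finger gene known for its need in lymphocyte development, was measured at 7.46, 8.28 and 9.44 CPM in KM rats. The “0” rats had 5.97, 6.54, 4.85 and 7.35 CPM and the W rats 5.69, 5.89, 5.91 and 5.65 CPM. KM rats were above all others, although “0” 4 came close to the lowest of them. The log2-fold change of KM rats was 0.54 ± 0.16 against W rats and 0.45 ± 0.22 against “0” rats. In “0” vs W it was 0.09 ± 0.19.

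Zfp161, now named Zbtb14 and known as a repressor of Myc, was the other gene with one of the 3 largest increases in KM vs W, at 0.47 ± 0.18. KM rats had 10.86, 11.24 and 11.04 CPM, “0” rats 11.1, 11.4, 7.17 and 6.31 CPM, and W rats 9.29, 8.65, 6.09 and 8.00 CPM. The “0” rats fell into a pair at the KM level and a pair within the W range. Their mean of 9.0 ± 2.63 CPM (SD, n = 4) had a spread larger than its distance from either other strain, and “0” vs W gave 0.16 ± 0.24.

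Zfp575 showed the most negative log2-fold change of KM against W rats, -0.94 ± 0.27, and -0.81 ± 0.30 against “0” rats. KM rats had 5.19, 5.41 and 6.77 CPM, “0” rats 7.08, 9.10, 15.8 and 9.10 CPM, and W rats 11.5, 14.5, 11.8 and 6.59 CPM. KM rats lay below all “0” rats, but W 4 fell within the KM range. Between “0” and W rats the log2-fold change was -0.14 ± 0.30.

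Zfp423, a protein with many fingers that binds Ebf and Smad factors and is needed for development of the cerebellar midline, had 33.2, 35.4 and 30.3 CPM in KM rats. The “0” rats had 46.5, 41.4, 50.1 and 36.5 CPM and the W rats 42.9, 37.1, 38.9 and 40.7 CPM. All KM rats were below all others, though “0” 4 and W 2 were close to the highest KM rat. The log2-fold change was -0.27 ± 0.12 in KM against W rats, -0.39 ± 0.16 in KM against “0” rats and 0.12 ± 0.13 between “0” and W rats.

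The KRAB gene Zfp169 had 5.02, 4.56 and 5.10 CPM in KM rats, 6.05, 5.69, 6.28 and 6.76 CPM in “0” rats and 6.81, 6.51, 7.46 and 9.13 CPM in W rats. The 3 strains followed each other with an overlap only between “0” and W rats. The log2-fold change of KM rats was -0.60 ± 0.19 against W rats and -0.33 ± 0.20 against “0” rats. In “0” vs W it was -0.28 ± 0.18, with an adjusted p = 0.902 by the QLF test.

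Zfp92, also a KRAB gene, had 2.51, 2.62 and 3.74 CPM in KM rats, 3.42, 5.02, 5.18 and 3.06 CPM in “0” rats and 4.17, 4.75, 4.03 and 4.90 CPM in W rats. KM rats were below W rats and overlapped “0” rats. Its log2-fold change in KM rats was -0.58 ± 0.23 against W rats and -0.47 ± 0.30 against “0” rats.

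Zfp40 and Zfp280d gave the next largest increases after Zfp518a in KM vs “0”. Zfp40 had 4.86, 5.24 and 3.80 CPM in KM rats, 1.91, 3.89, 2.65 and 1.82 CPM in “0” rats and 4.33, 5.51, 2.31 and 2.07 CPM in W rats. “0” 2 overlapped KM rats, and W rats spanned both strains. The log2-fold change was 0.87 ± 0.33 in KM vs “0” and 0.38 ± 0.37 in KM vs W.

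Zfp280d had 23.0, 23.7 and 19.9 CPM in KM rats and 18.1, 19.6, 11.4 and 8.97 CPM in “0” rats, which did not overlap. The W rats, at 18.9, 22.4, 14.3 and 18.5 CPM, reached into both ranges. The log2-fold change was 0.62 ± 0.27 in KM vs “0” and 0.27 ± 0.17 in KM vs W. In “0” vs W it was -0.36 ± 0.26 and was not called.

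The remaining 13 genes are given by their ranges. Zfp810, Zfp954, Zfp623, Zfp593, Zfp394, Zfp426 and Zbtb45 were called lower in KM vs W, with log2-fold changes from -0.55 (Zfp954) to -0.34 (Zbtb45). Zfp394 carries both a SCAN and a KRAB domain, and Zfp593 is related to a yeast factor for the export of ribosome precursors. Zfp644, a partner of the histone methyltransferase G9a, was called higher at 0.37. In KM vs “0” the same 7 lower genes ran from -0.38 (Zfp954) to -0.06 (Zfp810), and Zfp644 was at 0.34, none of them called. The KM rats did not overlap the W rats in Zfp810, where they had 45.5 to 53.2 CPM against 60.5 to 78.6, nor in Zfp394, where they had 15.3 to 16.0 CPM against 18.4 to 24.3. Of the called genes Zfp575 and Zbtb45 were those with overlapping KM and W rats.

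Zfp329 and Zfp687 were called in KM vs “0” alone, at 0.47 ± 0.18 and -0.35 ± 0.15, and their ranges in KM and “0” rats did not overlap. Zfp687, mutated in a severe form of Paget disease of bone in humans, had 32.6 to 36.1 CPM in KM rats, 38.0 to 49.4 in “0” rats and 31.0 to 38.7 in W rats. Its KM vs W value of -0.06 ± 0.12 was the nearest to 0 in the set. Zscan2, with a SCAN domain, Zfp422, known from tooth development, and the KRAB gene Zfp17 were not called in any comparison, though KM and W rats did not overlap in any of the 3. Whether a call in one comparison and none in another marks a difference between them was not tested. Symbols of 2 genes, Zfp810 and Zfp17, had no RefSeq entry, and Zfp426 is also a synonym of Zfp266, which makes its value uncertain in the same way as that of Zfp707.

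**Figure D4:**
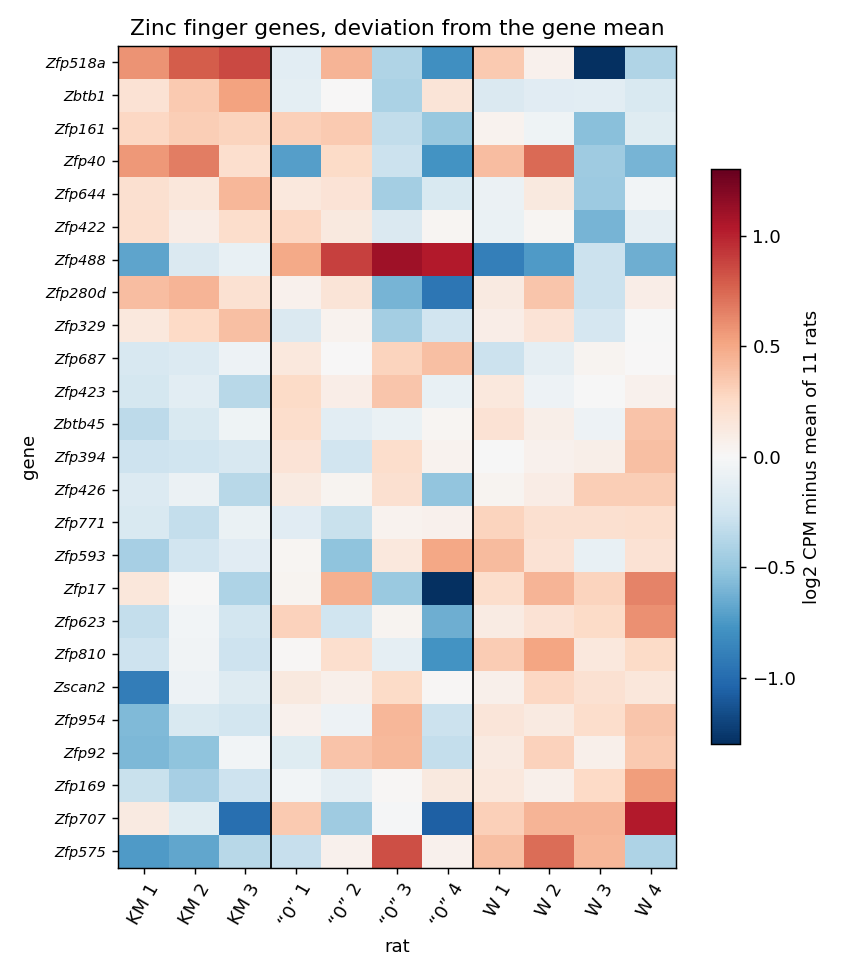
Deviation of log2 CPM from the mean of the 11 rats (colour, log2 scale) for the 25 zinc finger genes (rows, ordered by KM vs W log2-fold change) in each rat (columns). KM columns are red in the upper 9 rows except Zfp488 and blue in most lower ones, which follows from the order of the rows, and the “0” columns differ among themselves, as in Zfp17 and Zfp707, where “0” 4 is the lowest rat.

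Rats of a strain differed in how far the genes deviated together. Averaged over the 9 genes with a positive KM vs W value, the deviation from the mean of all rats was 0.209 to 0.338 on the log2 scale in KM rats, -0.248 to 0.272 in “0” rats and -0.484 to 0.0622 in W rats. Over the 16 genes with a negative value it was -0.329 to -0.222 in KM rats, -0.239 to 0.161 in “0” rats and 0.163 to 0.317 in W rats. The separation of KM from W rats follows from how the genes were split. The “0” rats were not used for the split, but they helped to choose the genes listed for KM vs “0” and are part of the mean of all rats. Their place is therefore not free of the selection. Over the genes with a positive value only “0” 2 reached the KM range, at 0.272, and the other “0” rats lay within the W range. Over the genes with a negative value only “0” 4 reached the KM range, at -0.239. The other “0” rats lay between KM and W rats there. A different rat thus reached the KM range in each set, and “0” 4 was the lowest of its strain in both.

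Markers of other cell types were summed by rat, as far as they are named. The 7 choroid plexus genes named, of 9 listed, summed to 32.3 to 7072 CPM in KM, 18.4 to 28.6 in “0” and 27.0 to 71.1 in W rats, and the highest KM sum was that of KM 3. The 4 erythrocyte genes named, of 8, summed to 335 to 752 CPM in KM, 340 to 487 in “0” and 830 to 2014 in W rats, with W rats above both selected strains. Hba-a2 was the largest part of the sum, and Alas2 overlapped between KM and W rats and was not called there. The 4 astrocyte genes, of 8, gave 3142 to 3724, 2572 to 3394 and 2498 to 2960 CPM in the same order, with KM above W rats and “0” rats overlapping both. The 2 endothelial genes, of 6, gave 153 to 166, 143 to 168 and 105 to 135 CPM, with W rats below both selected strains. The 2 microglial genes, of 8, gave 37.2 to 42.9, 32.9 to 48.2 and 36.2 to 44.2 CPM and overlapped in all strains. The astrocyte and microglial sums hold opposite members. In KM vs W Gfap was at 0.62 but Aldh1l1 and Gja1 were each at -0.46, and Tmem119 was at 0.49 but C1qc at -0.52 on the log2 scale. None of the named markers stood for neurons, tectum, cerebellum, or hippocampus and cortex, so the tissue label could not be checked. The part of these cells in the zinc finger results was not tested.

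Partners of zinc finger proteins and other C2H2 transcription factors were read from lists written for this tissue and reduced to genes the table names, which was chosen on these samples and is no independent evidence of direction. Of 20 genes of the KRAB corepressor machinery 3 are named, of 26 BTB and other corepressors 2, and of 53 other C2H2 factors 9. In KM vs W 5 of these were called higher and 5 lower, in KM vs “0” 5 higher and 2 lower, and in “0” vs W 2 higher and 3 lower, where 10.9%, 3.65% and 6.69% of all genes tested were called. No adjusted p was under 0.05 in the QLF test. The corepressor genes called in KM vs W, Chd4 and Ctbp2, and in KM vs “0”, Smarcad1, Tasor and Ctbp2, were higher in KM rats, with Chd4 and Tasor named after their values were seen. Only Ctbp2 was called in both. Chd4 was at -0.08 in KM vs “0” and was called higher in “0” vs W, at 0.36 on the log2 scale. Trim28 itself is not among the genes the table names.

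The C2H2 factors included both directions. Zeb2, a repressor with a role in neural and glial development, was higher in KM rats by 0.61 ± 0.17 against W and 0.56 ± 0.20 against “0” rats on the log2 scale, and Gli1, a target of hedgehog signalling, lower by a log2-fold change of -0.78 ± 0.22 and -0.60 ± 0.22. Zfx at 0.37 and Ctbp2 at 0.46 were the others named higher in KM vs W. Klf4 was lower at -0.52 and Klf1, an erythroid factor, at -1.27. Klf1 had only 0.729 to 1.18 CPM in KM rats. The erythrocyte genes were lower in KM vs W too, with Alas2 not called. In KM vs “0”, however, Klf1 was called lower while Hba-a2 (0.65) and Alas2 (0.73) were called higher. In “0” vs W Klf1, at -0.28, was not called, while the erythrocyte genes ranged from -2.84 (Lgals5) to -1.57 (Alas2). In KM vs “0” Smarcad1 was at 0.56 and Klf13 at 0.80. In “0” vs W, Klf2 had -0.93 ± 0.18 (adjusted p = 0.140), Egr1, a gene induced by neuronal activity, -0.94 ± 0.21 (adjusted p = 0.212), Klf4 -0.79 ± 0.18 (adjusted p = 0.219) and Klf11 0.63 ± 0.15 (adjusted p = 0.240), all by the QLF test, and their strains did not overlap.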

How the data were processed

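The authors trimmed 75-base single-end reads with Trimmomatic, mapped them to Rnor_6.0 with STAR and counted them per gene with HTSeq, tools and build being named in the submitters' processing notes without versions. They deposited counts, whole reads per gene and rat without normalization. Reads on no gene, 16.5 to 22.7% of each library, and reads on several genes were left out of library sizes. The class for reads with several alignments was at 0 in every file. The kit keeps the strand, and the counting setting is not given in the sources used here. There were 0 unused columns.

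Symbols came from the supplementary table, which pairs 1763 identifiers with names. The zinc finger genes and all gene lists were chosen with earlier results of these data known. Every zinc finger gene was named, with values per rat for those called in at least 2 comparisons or in “0” vs W and for the 3 with the largest change each way in KM vs W and KM vs “0”. Of the corepressor and other C2H2 genes, up to 3 each way with the smallest p among called genes without overlap were named.

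Each pair of strains was fitted alone in edgeR 4.0.16 (R 4.3.3, limma 3.58.1) with TMM and the original quasi-likelihood F-test, on genes with a mean of at least 1 CPM. Adjusted p-values are Benjamini-Hochberg over all genes tested. Log2 CPM used a prior count of 2. DESeq2 1.42.0, other filters, a joint fit, a replicate block, a covariate and leaving out each rat were alternatives. Groups came from sample titles. Nothing in the labels says that rats were littermates or processed together. Tested on simulated data for “0” vs W, with 200 of 13565 genes changed 4-fold, the fit gave 95.0% of these an adjusted p under 0.05. The share was 90% for KM vs W and 89.5% for KM vs “0”. A 4-fold change is larger than that of any of the 25 genes, where the largest log2-fold change was 1.54. The simulation therefore does not show how often changes of their size would be detected. The limit of 3 reads marks only a floor in CPM, and counting error was not estimated on its own. All other zinc finger genes of the genome and protein sequences were not analysed here, since no table at hand linked their identifiers to names. One gene of the marker lists is not reported here.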

Additional observations from a re-analysis of the deposited data

Results flagged for a closer look

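Outliers within a strain were looked for in the “0” and W rats, 50 groups of 4, of which chance alone marks about 1 in 20. The Zfp771 level of W 1, 43.4 CPM, was far from those of the other W rats, which lay between 40.8 and 41.2 CPM. The Zfp707 level of W 4, 8.85 CPM, was far from the other W rats at 5.29 to 5.83 CPM.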

How the results depend on the processing

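The call counts of the 25 zinc finger genes moved most with the threshold. At an adjusted p under 0.05 there were 0 in each KM comparison and 1 in “0” vs W, and 0 of the corepressor and other C2H2 genes in each. When the fraction of reads that fell outside genes entered the fit, 9 zinc finger genes were called in KM vs W in place of 17, 5 in “0” vs W in place of 3, and 4 corepressor and other C2H2 genes in KM vs “0” in place of 7. One fit of all 11 rats gave 5 zinc finger genes in “0” vs W. Leaving out each rat in turn gave 9 to 16 zinc finger genes and 6 to 10 corepressor and other C2H2 genes for KM against W rats, 2 to 10 and 1 to 6 for KM against “0” rats, and 2 to 4 and 4 to 6 for “0” against W rats.

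Replicate numbers are shared between strains, but the labels do not tie them to litters or days. Deviations of same-numbered rats had a mean correlation of -0.0501 for KM and W rats, 0.120 for KM and “0” rats (lowest pair 0.0572) and 0.0123 for “0” and W rats, and 1 of 3, 1 of 3 and 1 of 4 numbers had its best match in its own number, so the rats were not treated as pairs. With the number as a replicate block 5 zinc finger genes were called between KM and W rats and 5 between KM and “0” rats, and Zfp707 lost its call in “0” vs W (log2-fold change -0.88). The adjusted p of Zfp488 was then 0.182.

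Signs turned only in genes that were not called. When a rat was left out in “0” vs W, the log2-fold change ran from -0.135 to 0.0116 for Zfp394, -0.241 to 0.293 for Zfp518a, -0.403 to 0.0282 for Zfp575, -0.272 to 0.0442 for Zfp593, -0.0742 to 0.146 for Zfp644 and -0.225 to 0.0257 for Zfp92. The cause was not tested. In KM vs “0” it ran from -0.120 to 0.466 for Zfp17, -0.229 to 0.0793 for Zfp623, -0.309 to 0.252 for Zfp707 and -0.231 to 0.0768 for Zfp810, and the sign turned for Zfp17 with the block (-0.0830) and for the others with the fraction outside genes in the fit (0.0871, 0.185 and 0.124). No setting run changed a sign in KM vs W. Comparisons over all zinc finger genes of the genome, and a looser finger pattern in protein sequences, were planned and not run. Genes at 2 to 6 CPM rest on few reads, and 3 or 4 rats a strain limit what could be detected.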
